A study of Mus musculus with 21 samples.

Results

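The ATR replication stress checkpoint was followed at the RNA level in cultured mouse B cell precursors through 10 of its genes, chosen by symbol from the 24421 rows of the deposited RNA-seq tables. They are Atr, Atrip, Topbp1, Rad17, Clspn, Timeless, Tipin, Chek1, Cdc25a and Wee1. The choice was by gene name and role and not by a threshold on these values, although earlier results of these data were known, and each symbol had 1 row in both tables. Each had at least 443 counts in every library (the lowest was Atrip in EV), and all 10 passed the filter on low counts that left 12786 genes for testing.

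When a replication fork stalls, single-stranded DNA is coated by RPA, and the kinase ATR is brought there by its partner ATRIP. RAD17 loads a ring-shaped clamp at the same place, the clamp recruits TOPBP1, and TOPBP1 switches ATR on. CLASPIN (Clspn) and the fork proteins TIMELESS and TIPIN pass the signal to the effector kinase CHK1 (Chek1), which leads to the destruction of the phosphatase CDC25A, so that WEE1 can hold the cyclin-dependent kinases in their inactive form and new origins do not fire. B cell precursors divide fast in IL-7, and proliferating lymphocytes are known to need this pathway. Much of its control is by phosphorylation and protein turnover, which RNA-seq does not measure.

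All cells were primary bone marrow B cell precursors of 53BP1-/- C57BL/6 mice, so the loss of 53BP1, a DNA repair factor, was shared by every group, the control included. They grew with 10 ng/ml IL-7 and received retroviral MIGR1 vectors by spinoculation on days 2 and 3 of culture. EV cells carried the empty vector, BCR-ABL1 cells carried human BCR-ABL1p210 (the fusion kinase of chronic myeloid leukemia and part of acute lymphoblastic leukemia), and C-MYC cells carried the mouse transcription factor C-MYC. They were harvested 7 to 9 days after transduction, and poly(A) RNA of these cells was sequenced in 2 libraries per group, 6 in all, from duplicate experiments. The paper states that RNA-seq cells were harvested like those for ChIP-seq, from which dead and apoptotic cells were removed. Whether the 2 libraries of a group came from different mice is not stated, so the p-values below measure the spread between these libraries. Expression from the vectors ran from their own promoter in a bulk culture, and a sort for transduced cells before RNA extraction is not given in the sources used here.

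The libraries held 20687092 to 24095955 counts, of which the 10 most abundant genes took 4.07% to 5.28%. Myc, which checks the C-MYC label, stood at 1740 and 1230 CPM in C-MYC, against 181 and 137 in EV and 343 and 348 in BCR-ABL1. CPM are counts brought to the same library depth, with the TMM method for differences in composition. Trp53bp1, which encodes 53BP1, still gave 15.7 to 30.2 CPM in the 6 libraries, and without an unmodified control these reads check no label. B cell precursor markers were present in all libraries, with their sum at 5430 and 6150 CPM in EV, at 5530 and 6200 in BCR-ABL1 and at 3130 and 3770 in C-MYC. EV also held more myeloid, T and NK cell, and stromal marker RNA. The 8 myeloid markers summed to 1160 and 1260 CPM in EV, to 151 and 171 in BCR-ABL1 and to 222 and 366 in C-MYC, and none was at 0 in any library. The 6 T and NK cell markers summed to 60.8 and 82.1 CPM in EV and 2.53 to 5.15 in the other 4 libraries, and the 6 stromal markers to 103 and 157 against 1.75 to 6.02. In bulk RNA, fewer cells of a type and less RNA per cell cannot be told apart. These levels move with EV against both oncogene groups, and their part in the results below was not tested.

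The 10 genes lie on 5 chromosomes of GRCm38, and 6 of them, Atr, Atrip, Chek1, Topbp1, Tipin and Cdc25a, lie on chromosome 9. Clspn is on chromosome 4, Wee1 on 7, Timeless on 10 and Rad17 on 13. Chek1 spans bases 36708482 to 36727065 of chromosome 9 on the minus strand, and Cdc25a spans 109875579 to 109893895 on the plus strand. RefSeq promoters of GRCm38.p6, from 250 bases before to 50 bases after the start of transcription, were found for 8 of the 10 genes, with no entry for Tipin and Wee1. The entries of Timeless, chr10:128237816-128238115, and of Chek1, chr9:36726609-36726908, lie inside the annotated genes, which start at 128232065 and, on the minus strand, at 36727065. Replication genes are classical targets of the E2F factors, and C-MYC binds the E-box, so both strands were searched for 4 spellings of the E2F motif, TTCCCGC as well as TTGGCGC, then TTCGCGC as well as TTGCCGC, and for the E-box CACGTG. These letters were chosen after the sequences had been seen. The 4 promoters that held E2F letters are shown, because they include that of Cdc25a, which differed most between the groups, and those of Topbp1 and Clspn, which differed little. Each is a window of 30 bases on the strand of the gene, 5′ to 3′, with the matching letters or their reverse complement in capitals.
Chek1, chr9:36726609-36726638, minus strand: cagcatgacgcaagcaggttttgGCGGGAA
Topbp1, chr9:103305183-103305212, plus strand: gcgtccgctcggTTGGCGCgaaagtcggtt
Clspn, chr4:126556989-126557018, plus strand: taccgcgtctggGCGCGAAagctcgaactt
Cdc25a, chr9:109875501-109875530, plus strand: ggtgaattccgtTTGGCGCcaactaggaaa
In Topbp1 and in Cdc25a a second match on the other strand overlapped the one shown. The promoters of Atr, Atrip, Timeless and Rad17 held none of the E2F letters, and none of the 8 held CACGTG. Of the 12357 promoters of tested genes, 16.3% held E2F letters and 9.87% held CACGTG, and of all 32851 promoters 9.57% and 7.15% did. A match is a description of the letters only, and its absence says nothing of a factor's binding.

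Levels were first set against each other per length, as CPM per kilobase of the principal annotated transcript, averaged over the 6 libraries. Tipin was at 61.9 and Topbp1 at 51.9, followed by Clspn at 39.3, Cdc25a at 31.5, Wee1 at 29.4 and Timeless at 23.5. Chek1 was at 14.7, Rad17 at 9.95, Atrip at 9.04 and Atr at 6.68. By these means the mediators and the cell cycle switch were read more often per length than the sensor kinase, its partner and its effector. Of the neighbours in this order, Topbp1 was above Clspn, Timeless above Chek1, Chek1 above Rad17 and Rad17 above Atrip in all 6 libraries. The other neighbours changed places in at least 1 library, so that Tipin and Topbp1, for example, were not separated. The deposited FPKM (the authors' fragments scaled to length and depth) gave another order, with Topbp1 at 105, Timeless at 94.9, Wee1 at 79.9 and Atr at 43.8, and with Tipin at 21.7. Relative to the median gene, the FPKM of Atr was 6.6 times its CPM per kilobase, that of Timeless 4.06 times and that of Tipin 0.353 times. Of 10242 genes compared, 11.5% lay more than 4 times off in either direction. Per kilobase of all annotated exons, Tipin ranked 1, Wee1 2, Clspn 3 and Topbp1 4. By that measure Clspn was above Topbp1 in all 6 libraries, and Atrip was above Rad17 in both C-MYC libraries. The ranks of Atr, Timeless, Tipin, Topbp1 and Wee1, among others of the 10 genes, therefore depend on the measure.

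**Figure D1:**
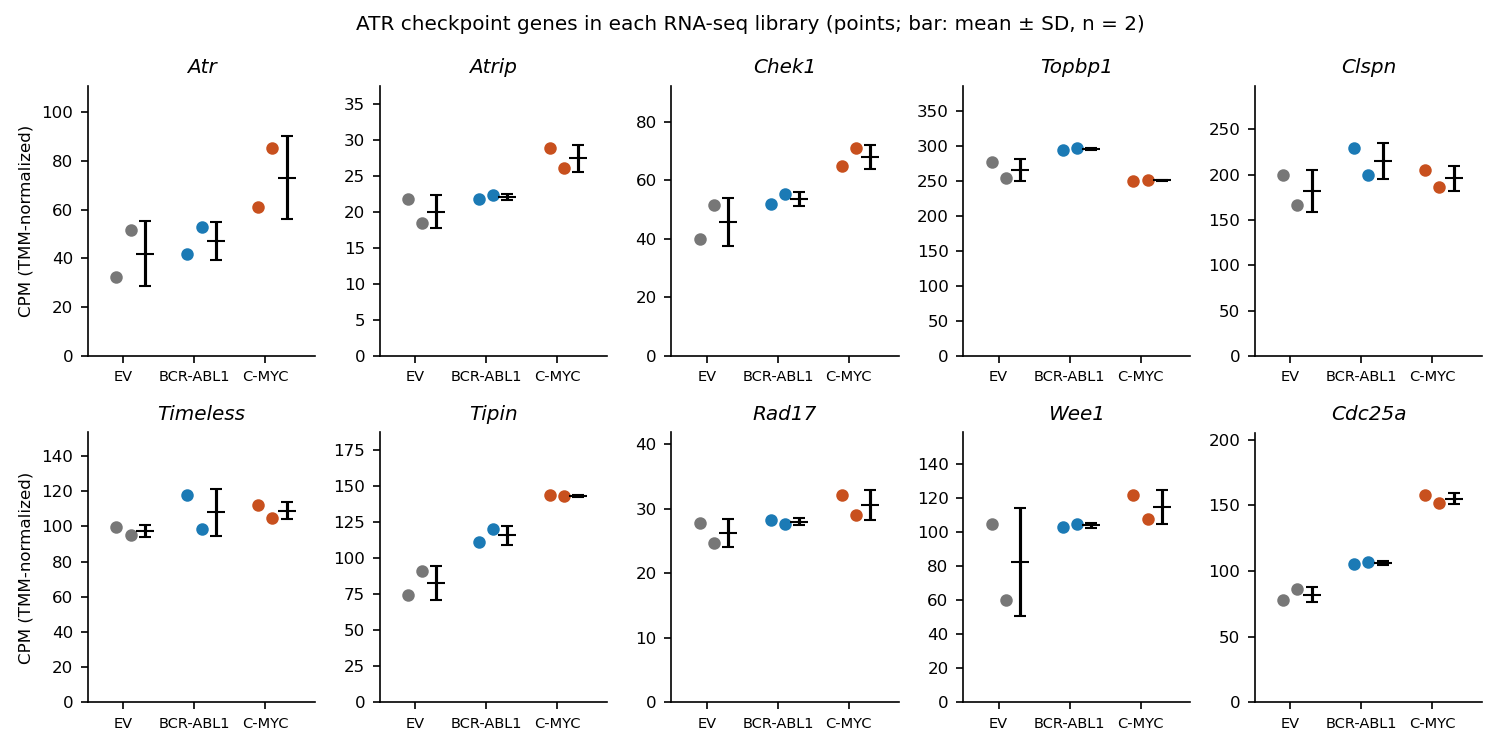
TMM-normalized CPM (vertical axis, from 0, its own scale in each panel) of the 10 checkpoint genes in each of 2 EV, 2 BCR-ABL1 and 2 C-MYC libraries (points; replicate 1 is on the left), with the mean ± SD of the 2 libraries beside them. Cdc25a and Tipin stepped up from EV to BCR-ABL1 to C-MYC without overlap, Topbp1 was lowest in C-MYC (250 and 252 CPM), and the 2 EV libraries of Wee1 lay far apart (105 and 59.9 CPM).

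Of the 3 comparisons, C-MYC against EV gave the most calls among the checkpoint genes. Cdc25a, Tipin, Atr, Chek1 and Atrip rose, by 1.37 to 1.89 times, and 0 of the 10 genes were called lower by edgeR, DESeq2 or limma. At an unadjusted p below 0.05 in edgeR's test, 0 were lower. Calls were made with the quasi-likelihood test of edgeR, with p-values adjusted by Benjamini and Hochberg's method for all tested genes and a threshold of 0.05. That is 5 of 10 genes higher, where 18.6% of all tested genes were called higher, 24.5% lower and 43.1% in either direction. Over the 10 genes the median log2 fold change was 0.47, beside -0.08 over all tested genes, and 9 of the 10 estimates were positive. BCR-ABL1 against EV gave 1 call, Tipin, with a median of 0.20 beside 0.00, and 10 positive estimates. There 5.08% of all tested genes were called higher, 12.0% lower and 17.0% in either direction. Both comparisons share the EV libraries. C-MYC against BCR-ABL1, which is the test of the difference between the oncogenes, also gave 1 call, Cdc25a, higher in C-MYC, with a median of 0.22 beside 0.00 and 8 positive estimates, where 11.5% of all tested genes were called higher, 11.9% lower and 23.4% in either direction. A range of CPM that did not overlap between the groups was common for all genes. In C-MYC against EV 8 checkpoint genes were higher and 1 lower without overlap, when this held for 31.5% and 39.1% of all tested genes.

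Atr, the sensor kinase, was at 32.4 and 51.5 CPM in EV, at 41.7 and 52.7 in BCR-ABL1 and at 61.3 and 85.2 in C-MYC. Both C-MYC libraries were above all others, while EV and BCR-ABL1 overlapped, and replicate 2 was the higher library in every group. Atr rose by 0.80 ± 0.25 (log2 fold change ± SE) in C-MYC against EV, 1.74 times, with an adjusted p of 0.0347 in edgeR's quasi-likelihood test. The call rested on single libraries. Without EV replicate 1 the log2 fold change was 0.51 with an adjusted p of 0.0887 in the same edgeR test, and without C-MYC replicate 2 it was 0.55 with an adjusted p of 0.204. In C-MYC against BCR-ABL1 the difference of 0.63 ± 0.25 did not pass (adjusted p = 0.108, edgeR), but DESeq2 (0.66, adjusted p = 0.0446), edgeR without the filter on low counts (0.64, adjusted p = 0.0389) and edgeR on the 4 libraries alone (0.64, adjusted p = 0.025) called it. The difference between BCR-ABL1 and EV was 0.17 ± 0.25 (adjusted p = 0.702, edgeR). Atr shares 726 exonic bases with the antisense gene 1700065D16Rik, which had at most 6 counts per library.

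Atrip, which tethers ATR to RPA-coated DNA, was at 21.8 and 18.5 CPM in EV, at 21.8 and 22.4 in BCR-ABL1 and at 28.9 and 26.2 in C-MYC. The C-MYC libraries were again the highest, and the other groups overlapped. Atrip rose by 0.45 ± 0.15 in C-MYC against EV, 1.37 times (adjusted p = 0.0428, edgeR). Of the 6 refits that each left out 1 library, that without EV replicate 1 alone kept the call, with a log2 fold change of 0.57, and the other 5 gave 0.34 to 0.53 with adjusted p from 0.0889 to 0.191 in edgeR's test. In C-MYC against BCR-ABL1 Atrip differed by 0.32 ± 0.15 (adjusted p = 0.164, edgeR). Atrip shares 1147 exonic bases with Trex1, a DNA exonuclease gene on the same strand, so reads there cannot be given to one gene, and its level is uncertain. Trex1 had 25.0 and 15.9 CPM in EV and 12.3 and 9.25 in C-MYC, the opposite order of the groups.

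The activators of the kinase that belong to the 10 genes, Topbp1 and Rad17, gave no call. Topbp1, which switches ATR on, was at 277 and 255 CPM in EV, at 295 and 297 in BCR-ABL1 and at 250 and 252 in C-MYC. It was the one gene of the 10 whose C-MYC libraries lay below all the others. The difference between C-MYC and BCR-ABL1 was -0.23 ± 0.10 on the log2 scale (unadjusted p = 0.0403 and adjusted p = 0.116 in edgeR's test), and between C-MYC and EV it was -0.08 ± 0.10, with a 95% interval of the fold from 0.81 to 1.1. Topbp1 has 2 annotated processed pseudogenes on chromosome 7, which could share reads with it. Rad17, the clamp loader, was at 27.8 and 24.7 CPM in EV, at 28.3 and 27.6 in BCR-ABL1 and at 32.2 and 29.0 in C-MYC. Its groups lay close together, and the fold of C-MYC over EV was 1.17, with a 95% interval from 0.932 to 1.46 (adjusted p = 0.234, edgeR). Rad17 shares 73 exonic bases with Ak6 on the opposite strand, and the handling of strand in counting is not given in the sources used here.

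The mediators split. Tipin, the smaller partner of the TIMELESS-TIPIN pair at the fork, was at 74.6 and 91.2 CPM in EV, at 111 and 120 in BCR-ABL1 and at 144 and 143 in C-MYC. The 3 groups did not overlap. Tipin rose by 0.79 ± 0.13 in C-MYC against EV, 1.73 times (adjusted p = 0.0023, edgeR), and this call was kept in all 6 refits without 1 library (0.65 to 0.94) and in all 7 other alternatives. In BCR-ABL1 against EV it rose by 0.48 ± 0.13, 1.40 times (adjusted p = 0.0381, edgeR). That call was kept in 1 of the 6 refits without a library, the one without EV replicate 2 (0.63). It was lost without EV replicate 1 (0.35), without either BCR-ABL1 library (0.54 and 0.42) and without either C-MYC library (0.49 each). The C-MYC libraries enter that comparison through the shared spread, the filter and the scaling. C-MYC against BCR-ABL1 gave 0.31 ± 0.13 (adjusted p = 0.117, edgeR). Of the 7 other alternatives, edgeR on the 4 libraries alone was the only one to call Tipin there (0.31, adjusted p = 0.0303).

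Timeless, the partner of Tipin, showed no such step, at 99.8 and 95.2 CPM in EV, at 118 and 98.8 in BCR-ABL1 and at 112 and 105 in C-MYC. The BCR-ABL1 libraries spanned both C-MYC libraries. Its fold in C-MYC against EV was 1.11, with a 95% interval from 0.915 to 1.35 (adjusted p = 0.339, edgeR), and C-MYC against BCR-ABL1 gave a log2 difference of 0.00 ± 0.12. Clspn, which brings CHK1 to ATR, was at 199 and 166 CPM in EV, at 229 and 200 in BCR-ABL1 and at 205 and 186 in C-MYC. Replicate 1 was above replicate 2 in each group, and the EV and C-MYC ranges overlapped. Clspn differed by 0.23 ± 0.13 in BCR-ABL1 against EV (adjusted p = 0.261, edgeR) and by 0.10 ± 0.13 in C-MYC against EV, a fold of 1.07 with a 95% interval from 0.872 to 1.32 (adjusted p = 0.56, edgeR).

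Chek1, the effector kinase, was at 39.8 and 51.6 CPM in EV, at 51.8 and 55.2 in BCR-ABL1 and at 65.0 and 70.9 in C-MYC. The groups did not overlap, but EV replicate 2 and BCR-ABL1 replicate 1 were nearly equal. Chek1 rose by 0.57 ± 0.15 in C-MYC against EV, 1.49 times (adjusted p = 0.0181, edgeR). Without C-MYC replicate 1 the value was 0.64 (adjusted p = 0.0587, edgeR) and without C-MYC replicate 2 it was 0.51 (adjusted p = 0.0993, edgeR), so neither refit kept the call, and without EV replicate 1 it was 0.40 and kept it. The differences of 0.23 ± 0.15 in BCR-ABL1 against EV (adjusted p = 0.356, edgeR) and of 0.34 ± 0.15 in C-MYC against BCR-ABL1 (adjusted p = 0.138, edgeR) did not pass. Of the 7 other alternatives, edgeR on the 4 libraries alone was the only one to call Chek1 in C-MYC against BCR-ABL1 (0.35, adjusted p = 0.0307).

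Cdc25a, the phosphatase that CHK1 marks for destruction and that activates cyclin-dependent kinases, gave the clearest difference of the 10 genes. It was at 77.8 and 86.3 CPM in EV, at 105 and 107 in BCR-ABL1 and at 158 and 152 in C-MYC. The 3 groups stood in steps, each with a spread below the gap to the next. Cdc25a rose by 0.92 ± 0.11 in C-MYC against EV, 1.89 times (adjusted p = 0.000683, edgeR), and the call was kept in all 6 refits without a library (0.85 to 0.99) and in all 7 other alternatives. C-MYC was also above BCR-ABL1, by 0.54 ± 0.11 or 1.46 times (adjusted p = 0.0105, edgeR). That call was kept in all 7 other alternatives and in the refits without an EV library, but not in those without BCR-ABL1 replicate 1 (0.53), BCR-ABL1 replicate 2 (0.57), C-MYC replicate 1 (0.52) or C-MYC replicate 2 (0.57), with adjusted p from 0.0602 to 0.123 in edgeR's test. In BCR-ABL1 against EV the difference of 0.37 ± 0.11 lay just outside the threshold (adjusted p = 0.0516, edgeR), and DESeq2 (0.40, adjusted p = 0.0171), edgeR with DESeq2 size factors (0.39, adjusted p = 0.0416) and edgeR without EV replicate 2 (0.45, adjusted p = 0.0255) put it inside.

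Wee1, the kinase that opposes Cdc25a, was at 105 and 59.9 CPM in EV, at 103 and 105 in BCR-ABL1 and at 122 and 108 in C-MYC. EV replicate 1 was level with BCR-ABL1, and EV replicate 2 was below all other libraries. The difference of 0.48 ± 0.23 in C-MYC against EV did not pass (adjusted p = 0.128, edgeR), and its value was set by the EV library used. Without EV replicate 1 it was 0.94 and passed (adjusted p = 0.000919, edgeR), and without EV replicate 2 it was 0.14. In BCR-ABL1 against EV the corresponding values were 0.81 (adjusted p = 0.00389, edgeR) and -0.000855, around 0.35 ± 0.23 with all libraries (adjusted p = 0.359, edgeR).

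**Figure D2:**
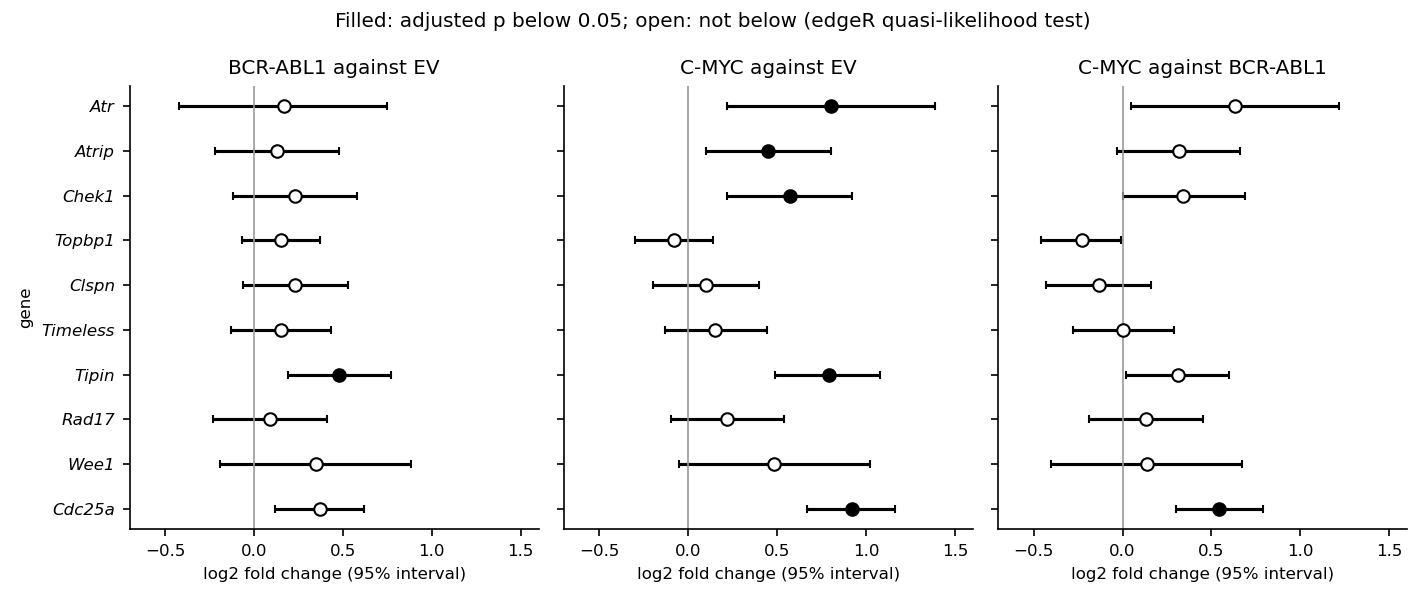
Log2 fold change with its 95% interval (horizontal axis) of each of the 10 checkpoint genes (vertical axis) in BCR-ABL1 against EV, C-MYC against EV and C-MYC against BCR-ABL1, with filled points where the adjusted p of edgeR's test was below 0.05. Filled points number 1, 5 and 1, and all lie above 0.

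**Figure D3:**
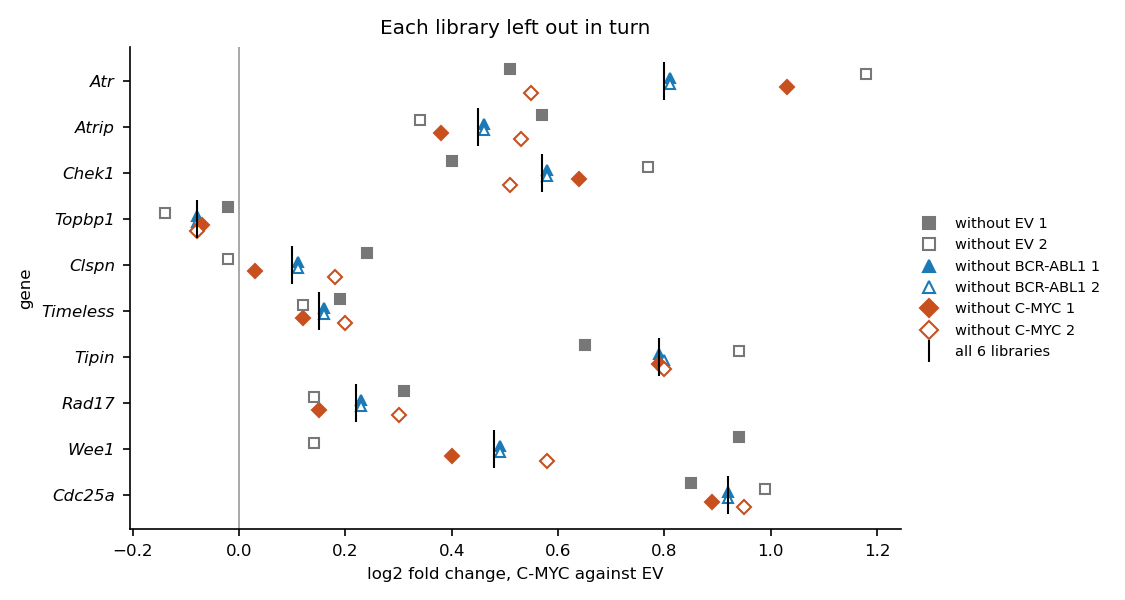
Log2 fold change of C-MYC against EV (horizontal axis) of the 10 genes with all 6 libraries (vertical bar) and with each library left out in turn (symbols by group, filled for replicate 1, open for replicate 2). Cdc25a stayed between 0.85 and 0.99, whereas Atr ran from 0.51 to 1.18 and Wee1 from 0.14 to 0.94, their ends set by the EV libraries.

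Within a library, ratios of partner genes do not depend on depth, and they were compared as log2 ratios of counts. Timeless to Tipin was at 0.42 and 0.06 in EV, at 0.09 and -0.29 in BCR-ABL1 and at -0.36 and -0.44 in C-MYC. Both C-MYC libraries were lowest, with means ± SD of 0.24 ± 0.25 (n = 2), -0.10 ± 0.26 (n = 2) and -0.40 ± 0.05 (n = 2), and EV and BCR-ABL1 overlapped. Cdc25a to Wee1 was -0.43 and 0.53 in EV, 0.02 in both BCR-ABL1 libraries, and 0.37 and 0.49 in C-MYC. Here C-MYC was above BCR-ABL1, and the EV libraries stood on both sides of every other one. Atr to Atrip ran from 0.57 to 1.48 in EV, from 0.94 to 1.23 in BCR-ABL1 and from 1.09 to 1.70 in C-MYC, and Chek1 to Atr from 0.00 to 0.30, 0.07 to 0.31 and -0.27 to 0.09. In these last ratios the groups overlapped. No test was made on the ratios.

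**Figure D4:**
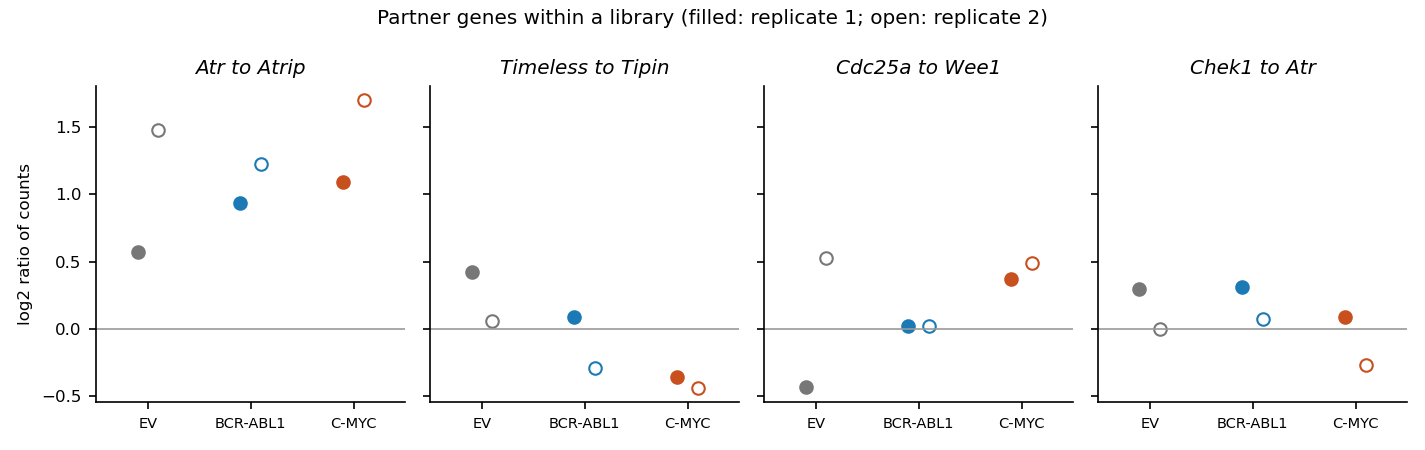
Log2 ratio of counts (vertical axis) of 4 pairs of genes in each library of EV, BCR-ABL1 and C-MYC (filled for replicate 1, open for replicate 2). Timeless to Tipin was lowest in both C-MYC libraries (-0.36 and -0.44), and Cdc25a to Wee1 in EV spanned -0.43 to 0.53.

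Because 6 of the genes share chromosome 9, all its tested genes, these 6 included, were examined. The 697 tested genes of chromosome 9 had a median log2 fold change of -0.08 in C-MYC against EV, the same as all tested genes, and 19.9% of them were called higher, beside 18.6%. The 6 checkpoint genes there had a median of 0.68 and the 4 elsewhere 0.19. In BCR-ABL1 against EV the medians of these 6 and 4 genes were 0.20 and 0.19, and that of chromosome 9 was -0.01. For C-MYC against BCR-ABL1 they were 0.33 and 0.07, and that of chromosome 9 was -0.01.

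Around these 10 genes, 5 lists of related genes and a list of proliferation markers were read in the same fits. Over all tested genes, 18.6% were called higher and 24.5% lower in C-MYC against EV. The shares were 5.08% and 12.0% in BCR-ABL1 against EV, and 11.5% and 11.9% in C-MYC against BCR-ABL1. Of 13 tested genes that start the signal (the RPA subunits, the clamp, its loader subunits and other activators; Hus1b, with at most 4 counts, was not tested), 8 rose in C-MYC against EV in edgeR's test, and 8 with DESeq2, but 3 with limma on FPKM. The 3 tools called 0 lower, and 1 gene was lower at an unadjusted p below 0.05, the clamp subunit Rad9a at -0.57 ± 0.24 (adjusted p = 0.0887, edgeR). Hus1, a subunit of the clamp, rose by 0.54 ± 0.12 (adjusted p = 0.00805, edgeR), Rpa2 by 0.54 ± 0.12 (adjusted p = 0.0089, edgeR), Rfc2 by 0.45 ± 0.11 (adjusted p = 0.0119, edgeR) and Rpa1 by 0.35 ± 0.10 (adjusted p = 0.0193, edgeR). The list had a median of 0.38, beside -0.08 over all tested genes. None of the 13 passed in BCR-ABL1 against EV, where their median was 0.21, or in C-MYC against BCR-ABL1, where it was 0.14 and Rad1, another clamp subunit, came nearest at 0.58 ± 0.19 (adjusted p = 0.0609, edgeR). The 8 folds in C-MYC against EV lay between 1.28 and 1.46. An unadjusted p below 0.05 with a higher level was found for 4 genes in BCR-ABL1 against EV and for 2 in C-MYC against BCR-ABL1, and DESeq2 called 2 in each.

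Of 10 cyclins, kinases and phosphatases on which the checkpoint acts, 4 rose in C-MYC against EV in edgeR's test. EdgeR and DESeq2 called 0 lower, with 0 lower at an unadjusted p below 0.05 in edgeR's test, while limma on FPKM called 3 higher and 1, Ccnb2, lower. Those that rose were Ccnb1 (0.65 ± 0.11), Ccne1 (0.56 ± 0.12), Cdk1 (0.38 ± 0.10) and Ccne2 (0.45 ± 0.14), which encode mitotic cyclin B1, the S phase cyclins E1 and E2 and the mitotic kinase. The list had a median of 0.19 in C-MYC against EV, where 18.6% of all tested genes were called higher with a median of -0.08 over all. In C-MYC against BCR-ABL1 the mitotic cyclin gene Ccnb2 was lower (log2 difference -0.40 ± 0.10, adjusted p = 0.0231, edgeR) and no gene was higher, and in BCR-ABL1 against EV none passed. In each of these comparisons 2 genes were higher at an unadjusted p below 0.05 in edgeR's test, and DESeq2 called 2 higher.

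Among 10 genes for the turnover and shut-off of the checkpoint, Ddb1 (0.57 ± 0.10), Usp7 (0.41 ± 0.09) and Usp28 (0.56 ± 0.13) rose in C-MYC against EV. Over all tested genes 18.6% were called higher there, and the list had a median of 0.18, beside -0.08 over all tested genes. DDB1 belongs to a ubiquitin ligase that removes CHK1, and USP7 and USP28 are deubiquitinases that protect CLASPIN. In C-MYC against BCR-ABL1, where 11.5% of all tested genes were called higher, Ddb1 (0.34 ± 0.10, adjusted p = 0.0465, edgeR) and Btrc (0.61 ± 0.16, adjusted p = 0.0306, edgeR) were higher. Limma on FPKM called 0 of the list there. Btrc encodes the F-box protein that directs CDC25A and CLASPIN to destruction. It was at 0.08 ± 0.16 in C-MYC against EV (adjusted p = 0.717, edgeR) and at -0.53 ± 0.16 in BCR-ABL1 against EV (adjusted p = 0.061, edgeR). None of this list passed in BCR-ABL1 against EV, where 1 gene was higher and 1 lower at an unadjusted p below 0.05 and DESeq2 called 1, lower. Of 10 fork and origin factors, Dbf4, the activator of the origin kinase CDC7 (0.42 ± 0.11), Rrm1, a subunit of ribonucleotide reductase (0.33 ± 0.10), and Rif1, which counters origin firing (0.34 ± 0.12), rose in C-MYC against EV, and Rif1 rose in BCR-ABL1 against EV (0.42 ± 0.12, adjusted p = 0.0485, edgeR). DESeq2 called 4 and 1 of them higher in these comparisons, and limma on FPKM called 0 in both. Over all tested genes 18.6% and 5.08% were called higher there. The medians of the fork and origin list were 0.15 and 0.08, beside -0.08 and 0.00 over all tested genes. In C-MYC against BCR-ABL1 edgeR, DESeq2 and limma called 0 of the fork and origin factors, and 0 had an unadjusted p below 0.05 in edgeR's test.

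The related kinases gave no call. Atm, Prkdc, Mtor, Smg1 and the checkpoint kinase gene Chek2 had a median of 0.01 in BCR-ABL1 against EV, 0.01 in C-MYC against EV and 0.03 in C-MYC against BCR-ABL1, and 0 of the 5 passed in edgeR, DESeq2 or limma, with 0 at an unadjusted p below 0.05 in edgeR's test. Over all tested genes the medians were 0.00, -0.08 and 0.00, and 17.0%, 43.1% and 23.4% were called in either direction. In C-MYC against EV, Mtor had -0.46 ± 0.22 (adjusted p = 0.128, edgeR), Prkdc 0.22 ± 0.25 (adjusted p = 0.501, edgeR) and Atm 0.16 ± 0.22 (adjusted p = 0.579, edgeR). These estimates have wide errors, and the differences from Atr were not tested.

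The proliferation markers were split. Of 11 tested, 7 rose in C-MYC against EV, all 6 MCM helicase genes and Pcna, which act in DNA replication. The other 4 did not pass, with Mki67 at -0.23, Top2a at -0.05, Birc5 at 0.01 and Tyms at 0.18, of which the first 3 are markers of dividing cells. Of the 11, 2 rose in BCR-ABL1 against EV in edgeR's test, Tyms (0.40 ± 0.10) and Mcm4 (0.35 ± 0.10). There DESeq2 called 4 higher and limma on FPKM 0, and 7 were higher at an unadjusted p below 0.05 in edgeR's test. Over all tested genes, 18.6% were called higher in C-MYC against EV and 5.08% in BCR-ABL1 against EV. The medians of the list were 0.41 in C-MYC against EV and 0.28 in BCR-ABL1 against EV. Between C-MYC and BCR-ABL1 the 3 tools called 0 of them, with 0 at an unadjusted p below 0.05. Their sum was at 6030 and 6260 CPM in EV, at 6900 and 6580 in BCR-ABL1 and at 7110 and 6990 in C-MYC, with EV below both other groups. The summed level of the B cell precursor markers was lower in C-MYC, where 9 of the 10 markers fell against EV, and 3 fell in BCR-ABL1 against EV. Over all tested genes 24.5% and 12.0% were called lower in these comparisons. In C-MYC against BCR-ABL1, 2 of 8 myeloid markers were higher, and 7 of 10 B cell precursor markers and 2 of 5 tested stromal markers were lower. Of the T and NK markers 0 of 6 were called, and over all tested genes 11.5% were called higher and 11.9% lower. The part of proliferation and of cell composition in the values of the checkpoint genes was not tested.

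**Figure D5:**
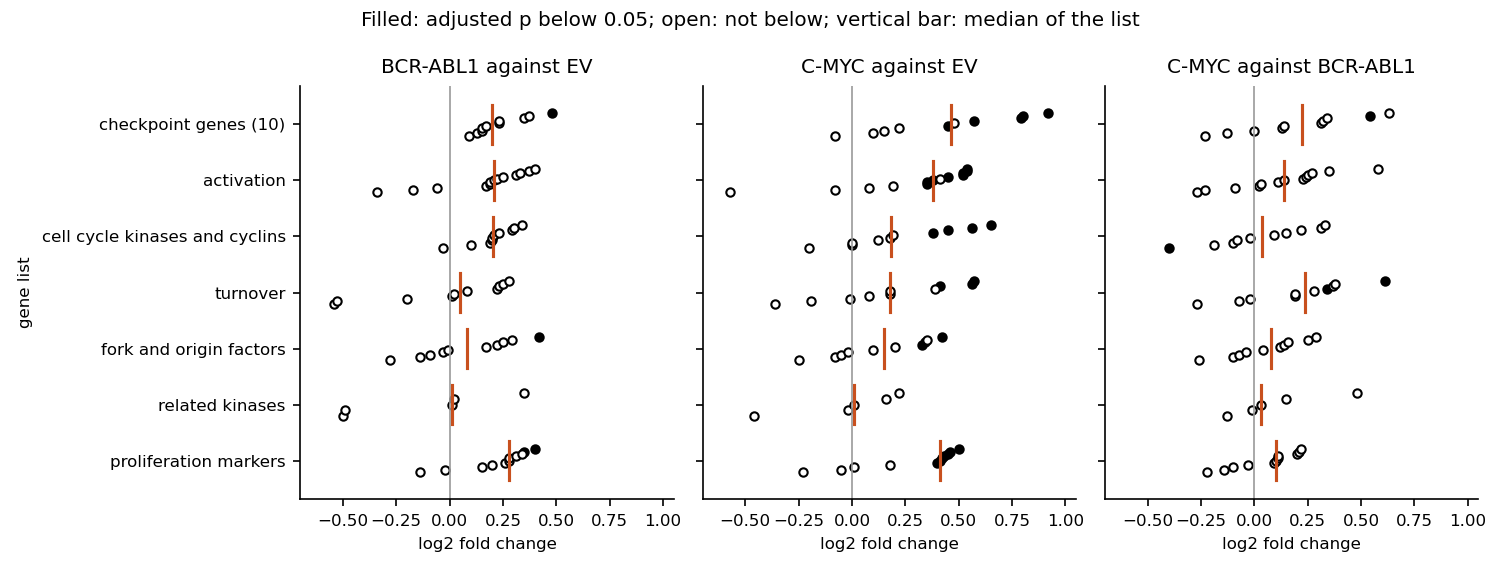
Log2 fold change (horizontal axis) of every tested gene of the 10 checkpoint genes, 5 lists of related genes and the proliferation markers (vertical axis) in the 3 comparisons, filled at an adjusted p below 0.05 in edgeR's test, with the median of each list as a vertical bar. In C-MYC against EV the medians of the checkpoint genes (0.47), of the proliferation markers (0.41) and of the activation list (0.38) lay above that of the related kinases (0.01). The median over all tested genes was -0.08.

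The genes did not all follow the same course over the 6 libraries. Pearson's correlation of a gene's log2 CPM with the mean of the 10 standardized profiles, in which it is itself included, was 0.90 for Cdc25a, 0.89 for Atrip and Rad17, and 0.88 for Tipin, but 0.59 for Clspn, 0.54 for Atr and -0.06 for Topbp1. Among the 10623 tested genes whose counts averaged 50 or more, the profiles most like that mean were those of Snrnp40 (0.9997), Gcat (0.999), Nudt21 (0.9976), Hspbp1 (0.9964) and Sdhc (0.9946). Those most like Chek1 alone were Hypk (0.9987), Sirt5 (0.9977) and Vkorc1l1 (0.9975). Hypk, for example, was at 68.9 and 89.4 CPM in EV, at 89.2 and 96.4 in BCR-ABL1 and at 113 and 127 in C-MYC, the same order as Chek1. These values describe 6 libraries that fall into 3 groups and share depth and composition, and the closest of so many profiles are close by selection.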

How the data were processed

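RNA-seq of EV, BCR-ABL1 and C-MYC B cell precursors (2 libraries each) was analysed, and the ChIP-seq samples of the series were not analysed here. The authors aligned poly(A) reads to GRCm38/mm10 with STAR 2.5.0 and UCSC known genes. The deposited counts are raw integers, 1 row for each gene symbol. The deposited FPKM were calculated by the authors with StringTie 1.3.0. The program that counted reads and its use of strand are not given in the sources used here. The tables hold 0 columns of other samples.

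From the counts, edgeR 4.0.16 (R 4.3.3) was run on all 6 libraries in 1 model without a covariate, with filterByExpr (12786 of 24421 genes kept), TMM scaling and the quasi-likelihood test. A gene was called at a Benjamini-Hochberg adjusted p below 0.05 over all genes tested, also where a list is described. The SE of a log2 value was obtained from the F statistic (the size of the value over the root of F). The common biological coefficient of variation was 0.151. Alternatives were DESeq2 1.42.0, its size factors in edgeR, upper quartile scaling, no filter, limma 3.58.1 on log2(FPKM + 1), a fit of the 4 libraries compared, the replicate number as a term, and each library left out. Levels per length used GENCODE principal transcripts, added after the data were seen, beside the planned counts per kilobase of all annotated exons. The calculations were tested on simulated counts. Sequences are from RefSeq. One list of cell type markers is not reported here.

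The members, the lists and the tests were chosen with earlier results of these data known. All 10 members are named. Of each list, genes past the threshold in BCR-ABL1 against EV and up to 4 with the smallest p in the other comparisons were eligible for naming, as were the 5 genes most like the members' mean and the 3 most like Chek1. Outside this rule, Rad9a was named for its direction, Hus1b because it was not tested, and every proliferation marker whatever its p.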

Additional observations from a re-analysis of the deposited data

How the results depend on the processing

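Each of the 10 genes was refitted in 3 comparisons under 7 alternatives and without each of 6 libraries, 390 refits in all. Of these, 338 kept the direction and the side of the threshold, 25 lost the call in the same direction, 19 gained one and 8 changed sign. No sign changed for a called gene. The 8 were Atr in BCR-ABL1 against EV without BCR-ABL1 replicate 2 (-0.01) and without EV replicate 1 (-0.12), in a range over left-out libraries of -0.12 to 0.55; Wee1 in BCR-ABL1 against EV without EV replicate 2 (-0.000855, in a range up to 0.81); Clspn in C-MYC against EV with limma on FPKM (-0.03) and without EV replicate 2 (-0.02, in a range up to 0.24); and Timeless in C-MYC against BCR-ABL1 with limma on FPKM (-0.05), without BCR-ABL1 replicate 2 (-0.11) and without C-MYC replicate 1 (-0.04, in a range up to 0.13).

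In BCR-ABL1 against EV, with 1 call among the 10 genes, 2 were called with DESeq2 size factors, 2 with the DESeq2 test and 2 with the replicate block, and 0 with limma on FPKM, upper quartile scaling or the 4 libraries alone. Leaving out a library gave 0 to 2 calls. In C-MYC against EV, with 5 calls, limma on FPKM gave 2, keeping Cdc25a and Tipin, and leaving out a library gave 2 to 5. In C-MYC against BCR-ABL1, with 1 call, the DESeq2 test, the fit with no filter and the replicate block gave 2 each, the 4 libraries alone gave 4, and leaving out a library gave 0 to 4. Over all tested genes, the 2180 calls of BCR-ABL1 against EV ran from 665 to 2729 when a library was left out, the 5515 of C-MYC against EV from 3329 to 6077, and the 2991 of C-MYC against BCR-ABL1 from 618 to 4519, with 4538 in the 4 libraries alone. The cause of these moves was not tested.

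The labels do not say what the replicate number marks. The differences between replicates of 2 groups correlated across 12786 genes, with r of 0.25 for EV and BCR-ABL1, 0.22 for EV and C-MYC, and 0.18 for BCR-ABL1 and C-MYC. With the replicate block, 3224, 6631 and 4278 genes were called in BCR-ABL1 against EV, C-MYC against EV and C-MYC against BCR-ABL1, and 2, 6 and 2 of the checkpoint genes. The genes that gained a call under it were Cdc25a in BCR-ABL1 against EV (0.37, adjusted p = 0.0289, edgeR), Wee1 in C-MYC against EV (0.51, adjusted p = 0.0424, edgeR) and Atr in C-MYC against BCR-ABL1 (0.62, adjusted p = 0.00549, edgeR).

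With 2 libraries per group, the fits without a library assume that the lone library varies like the other groups. A difference that missed the threshold is not shown to be absent. Counts do not separate vector from endogenous Myc, and they measure RNA, not protein or its phosphorylation.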
